A study of Mus musculus with 8 samples.

Results

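The voltage-gated sodium channel subunit genes of the brain were followed in mice labelled Nsun5-KO and their WT littermates. The set holds 7 of the 54532 genes in the deposited count table, taken by symbol: the alpha subunit genes Scn1a, Scn2a, Scn3a and Scn8a and the beta subunit genes Scn2b, Scn3b and Scn4b. All 7 were found once and all 7 passed the filter on low counts, as did 16062 genes in all. Bulk RNA sequencing of brain tissue gave 4 libraries labelled Nsun5-KO and 4 WT libraries. Per the labels' protocols, all mice were males of 3 months from one litter, 5 per genotype had been used, and both groups received pentobarbital at 50 mg/kg before the brain was removed. The labels give Nsun5-KO as the genotype and do not say which part of the gene is altered or whether the loss is limited to a cell type. By its title, the study concerns myelination and sleep after loss of Nsun5, an enzyme that methylates ribosomal RNA.

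Voltage-gated sodium channels open when the membrane depolarises and carry the rising phase of the action potential. The alpha subunit is a long membrane protein that forms the whole pore and its gates, while the beta subunits are small proteins with a single membrane pass and an immunoglobulin-like domain outside the cell, which tune gating and act in adhesion. In the adult brain Scn8a encodes NaV1.6, the main channel of nodes of Ranvier and of the distal axon initial segment. Scn2a encodes NaV1.2, which predominates in immature and unmyelinated axons, Scn1a encodes NaV1.1, on which fast-spiking interneurons depend, and Scn3a encodes NaV1.3, a channel mainly of the embryonic and neonatal brain. The beta subunits of Scn2b and Scn4b are joined to the alpha subunit by a disulfide bond, and that of Scn3b is not.

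The alpha subunit genes are close relatives, which bears on whether reads can be assigned to one of them. Over the whole coding sequence identity was 84.3% between Scn2a and Scn3a and 74.7% between Scn1a and Scn8a. The stretches that reads could share were nevertheless short. Of all words of 100 bases in the annotated transcripts, 0.841% of those of Scn1a, 1.01% of those of Scn2a and 0.765% of those of Scn3a also occurred in another of the 7 genes. None of the 16197 words of Scn8a did, and none of those of the 3 beta subunit genes. With words of 31 bases the shares were 6.65%, 8.13% and 8.31% for Scn1a, Scn2a and Scn3a and 0.333% for Scn8a. Read length is not given in the sources used here, so a small part of the counts of Scn1a, Scn2a and Scn3a is uncertain. No exon of another GENCODE gene overlapped an exon of the 7 genes, so the unstranded library kit leaves no annotated exon of theirs to be shared with an antisense gene. The antisense gene Gm13629 begins just beyond the 5′ end of Scn1a, and averaged 4.38 CPM in the libraries labelled Nsun5-KO and 2.99 CPM in WT.

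The 8 libraries held 15642086 to 17829523 counts. Nsun5 itself had 83 to 124 counts in the libraries labelled Nsun5-KO and 82 to 109 in the WT libraries (log2 fold change 0.13, SE 0.15, edgeR adjusted p = 0.817), so the gene count did not bear out the labels. Every direction below is therefore that of the libraries labelled Nsun5-KO, relative to WT. WT replicates 1 and 2 stood apart from the other libraries on the first principal component (scores of 29.7 and 36, against -23.8 to -1.7). Of 6 cerebellar genes, 3 had few counts: Gabra6 of granule cells 0 to 30, Pcp2 of Purkinje cells 0 to 19 and Cbln3 3 to 49. The other 3, Car8 (165 to 315 counts), Zic1 (264 to 1105) and Calb1 (2568 to 3921), are also expressed outside the cerebellum. In bulk tissue, fewer cells of a type and less RNA per cell cannot be told apart.

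Per length, the beta subunit genes Scn2b and Scn4b were the most abundant of the set and Scn3a the least. FPKM, the fragment count scaled for gene length and library size, averaged 85.9 ± 6.21 for Scn2b and 77.4 ± 34.5 for Scn4b over all 8 libraries (SD, n = 8). Scn2a followed at 31.7 ± 3.13, Scn3b at 25.8 ± 5.14, Scn1a at 19.2 ± 4.66, Scn8a at 18.9 ± 2.67 and Scn3a at 4.43 ± 0.94. Scn2b thus ranked above 97.2% of the tested genes and Scn3a above 49.3%. Some neighbours in this order were not separated. Scn2b exceeded Scn4b in 4 of 8 libraries and Scn1a exceeded Scn8a in 3 of 8, while Scn2a exceeded Scn3b in 8 of 8 and Scn8a exceeded Scn3a in 8 of 8. Only the step down to Scn3a left no overlap between the ranges of neighbouring genes.

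Among the alpha subunits, Scn1a and Scn8a lay above WT in every library labelled Nsun5-KO, and Scn2a and Scn3a did not differ detectably. By edgeR with Benjamini-Hochberg adjustment over all genes, 0 of the 7 subunit genes were called at an adjusted p below 0.05, as were 0 of 16062 genes (0%). An unadjusted p below 0.05 was reached by 2 of 7, against 10.4% of all tested genes. Both were higher (5.3% of all tested genes) and 0 of 7 were lower (5.05%). DESeq2 called 2 of 7 at an adjusted p below 0.05, against 0.663% of the genes to which it gave an adjusted p; both were higher, against 0.36%, and 0 of 7 were lower, against 0.303%. The 2 genes were Scn1a and Scn8a under each rule. They were also the 2 of 7 for which every library labelled Nsun5-KO lay above every WT library, against 2.99% of all tested genes, and 0 of 7 had the reverse, against 2.71%. The fitted fold change was above WT for 5 of 7, against 48.6%. Since the set was chosen with earlier results of these data known, these shares describe it and do not test it.

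Scn8a (chr15:100869858-101045938, plus strand, mm10) had 345, 317, 350 and 322 CPM (counts scaled to a common library size) in replicates 1 to 4 labelled Nsun5-KO, against 255, 245, 304 and 257 CPM in WT replicates 1 to 4. The groups did not overlap, and WT replicate 3 came nearest to the other group. The means were 334 ± 16.5 CPM in the libraries labelled Nsun5-KO and 265 ± 26.3 CPM in WT (SD, n = 4 each; exact permutation p = 0.0286, the smallest that 4 against 4 libraries can give, two-sided). Groups of 4 that do not overlap always give this p, so it adds nothing to the lack of overlap. The fold change was 1.26 with a 95% interval of 1.12 to 1.42 (log2 fold change 0.33, SE 0.08; edgeR adjusted p = 0.307, DESeq2 adjusted p = 0.0275). Its unadjusted edgeR p of 0.00118 ranked 60th of 16062.

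Scn1a (chr2:66270778-66440840, minus strand) had 236, 310.4, 213 and 254 CPM in replicates 1 to 4 labelled Nsun5-KO, against 181, 140.1, 211 and 181 CPM in WT replicates 1 to 4. The groups stood apart by a narrow margin, replicate 3 labelled Nsun5-KO lying just above WT replicate 3, and the highest and the lowest library were replicate 2 labelled Nsun5-KO and WT replicate 2. Scn1a averaged 253 ± 41.6 CPM in the libraries labelled Nsun5-KO and 178 ± 29.2 CPM in WT (SD, n = 4 each; exact permutation p = 0.0286, two-sided). As for Scn8a, this permutation p follows from the lack of overlap. The fold change was 1.42 with a 95% interval of 1.15 to 1.75 (log2 fold change 0.51, SE 0.14; edgeR adjusted p = 0.316, DESeq2 adjusted p = 0.0499).

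Scn2a (chr2:65620771-65767447, plus strand), the most abundant alpha subunit gene per length, had 415, 365, 471 and 433 CPM in replicates 1 to 4 labelled Nsun5-KO, against 412, 434, 360 and 367 CPM in WT replicates 1 to 4. The groups overlapped over most of their range. The fold change was 1.07 with a 95% interval of 0.934 to 1.23 (edgeR adjusted p = 0.757), which leaves room for a change of the size of Scn8a's lower bound. Scn3a (chr2:65457118-65567627, minus strand) had 44.3, 44.1, 52.6 and 65.0 CPM in replicates 1 to 4 labelled Nsun5-KO, against 55.3, 80.3, 52.0 and 51.7 CPM in WT. WT replicate 2 stood above the other WT libraries, and both lowest values were in the group labelled Nsun5-KO. The Scn3a fold change was 0.862 with a 95% interval of 0.661 to 1.12 (edgeR adjusted p = 0.711), and its log2 value of -0.21 came to -0.0453 without WT replicate 2. Whether the fold changes of the alpha subunit genes differ from each other was not tested.

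**Figure D1:**
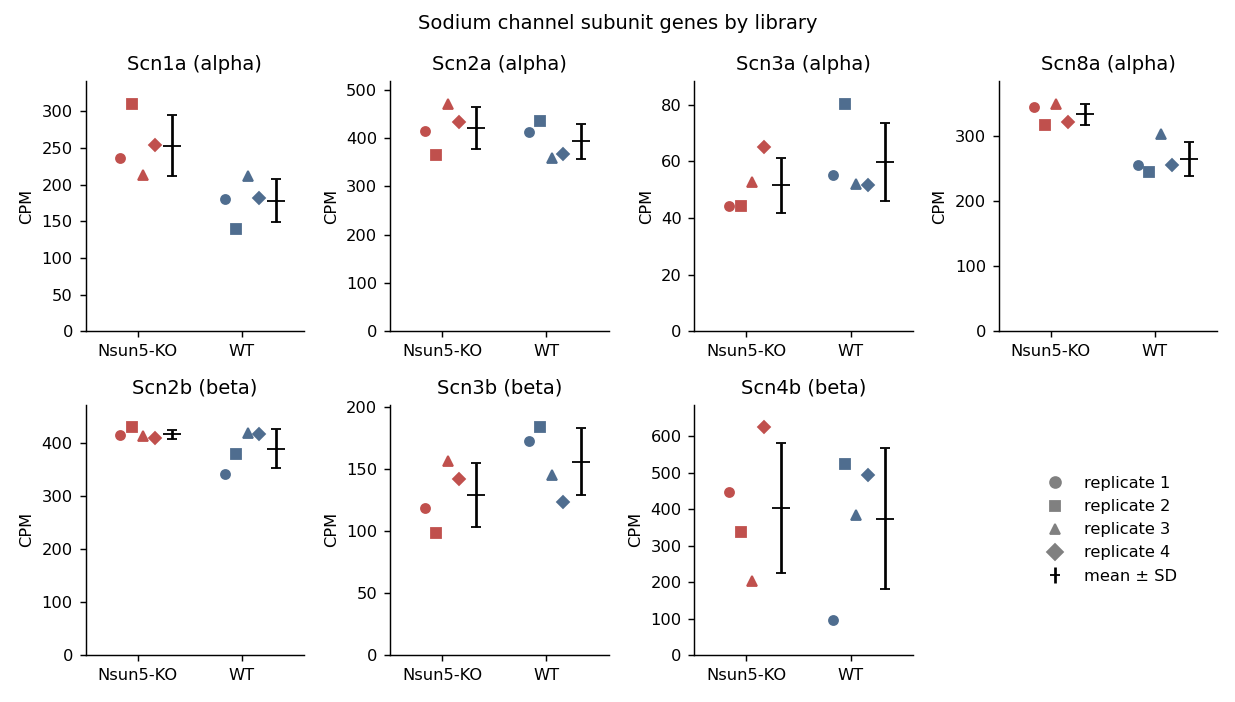
CPM (y axes, from 0) of the 4 alpha and 3 beta subunit genes in each library, with the libraries labelled Nsun5-KO left of WT; marker shapes give the replicate number and bars the mean ± SD of 4 libraries. Scn1a and Scn8a show no overlap between the groups, and Scn4b spreads from 96.8 to 625 CPM with both groups across most of that range.

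Summed over the 4 genes, alpha subunit RNA lay in a narrow band in each group. The summed level was 78.6, 79.8, 82.2 and 81.6 FPKM in replicates 1 to 4 labelled Nsun5-KO, against 68.5, 67.9, 70 and 65.1 FPKM in WT replicates 1 to 4. All 4 libraries labelled Nsun5-KO lay above all 4 WT libraries. The makeup of the sum varied more from library to library than the sum itself. Scn1a made up 23.1% to 34.7% of the alpha sum in the libraries labelled Nsun5-KO and 18.3% to 26.8% in WT. For Scn2a the shares were 35.7% to 44.8% and 40% to 49.7%, and for Scn3a 4.42% to 6.33% and 5.90% to 9.38%. Scn8a held 24.8% to 27.7% and 22.6% to 27.3%. The level of Scn8a relative to Scn2a, the pair of channels that marks mature nodes against unmyelinated axons, was 0.600 to 0.702 in the libraries labelled Nsun5-KO and 0.456 to 0.682 in WT, so the groups overlapped. The ratio of Scn1a to Scn3a was 4.36 to 7.87 against 1.95 to 4.54 and overlapped as well, with its lowest value in WT replicate 2.

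Some general neuronal genes also lay above WT. A list of 12 neuronal genes, among them Snap25 of the vesicle fusion machinery and the neurofilament gene Nefm, summed to 9570 to 10100 CPM in the libraries labelled Nsun5-KO and 8340 to 8870 CPM in WT. Of these 12 genes 5 were higher at an unadjusted edgeR p below 0.05 (5.3% of all tested genes) and 0 lower, with Snap25 at a log2 fold change of 0.37 (edgeR adjusted p = 0.196), Nefm at 0.38 (0.332) and Nefl at 0.20 (0.412). Map2 was at -0.03 and Tubb3 and Stmn2 at 0.03. The median of the 12 was 0.17, against -0.005 over all tested genes. Set against this list, the alpha sum was 7.77 to 8.53 FPKM per 1000 CPM of neuronal genes in the libraries labelled Nsun5-KO and 7.48 to 8.15 in WT. The groups overlapped on this scale, and how far they did depended on single list genes. Snap25 was the most abundant of the 12 and the 1 that DESeq2 called (DESeq2 adjusted p = 0.000781). Without it the alpha sum was 11.2 to 12 FPKM per 1000 CPM in the libraries labelled Nsun5-KO and 10.4 to 11 in WT, with no overlap. Leaving out any of the other 11 genes kept an overlap. Without Map2 the values were 8.57 to 9.53 in the libraries labelled Nsun5-KO and 8.29 to 9.46 in WT. The mean difference, labelled Nsun5-KO minus WT, was 0.28 with the whole list, 0.919 without Snap25 and 0.135 without Map2. On the whole list Scn8a stood at 31.8 to 34.8 CPM per 1000 against 29.2 to 34.3 in WT, and Scn1a at 21.2 to 31.1 against 16.8 to 23.8 in WT, both overlapping, as they did with each of the 12 genes left out. The scaling was chosen after the values were seen. Cortical projection neuron genes lay higher too, with 7 of 10 higher at an unadjusted p below 0.05 (5.3% of all tested genes). Their median log2 fold change was 0.44, with Tbr1 at 0.48 and Cux2 at 0.56. Their summed level was 1860 to 2420 CPM in the libraries labelled Nsun5-KO and 1380 to 1900 CPM in WT. Genes of myelinating oligodendrocytes lay lower, 12 of 13 at an unadjusted p below 0.05 (5.05% of all tested genes), with Anln at -0.51, Mal at -0.46 and Mobp at -0.41. They summed to 4750 to 6540 CPM against 7310 to 7930 CPM in WT. The part of these shifts in the levels of Scn1a and Scn8a was not tested beyond the ratios given.

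**Figure D2:**
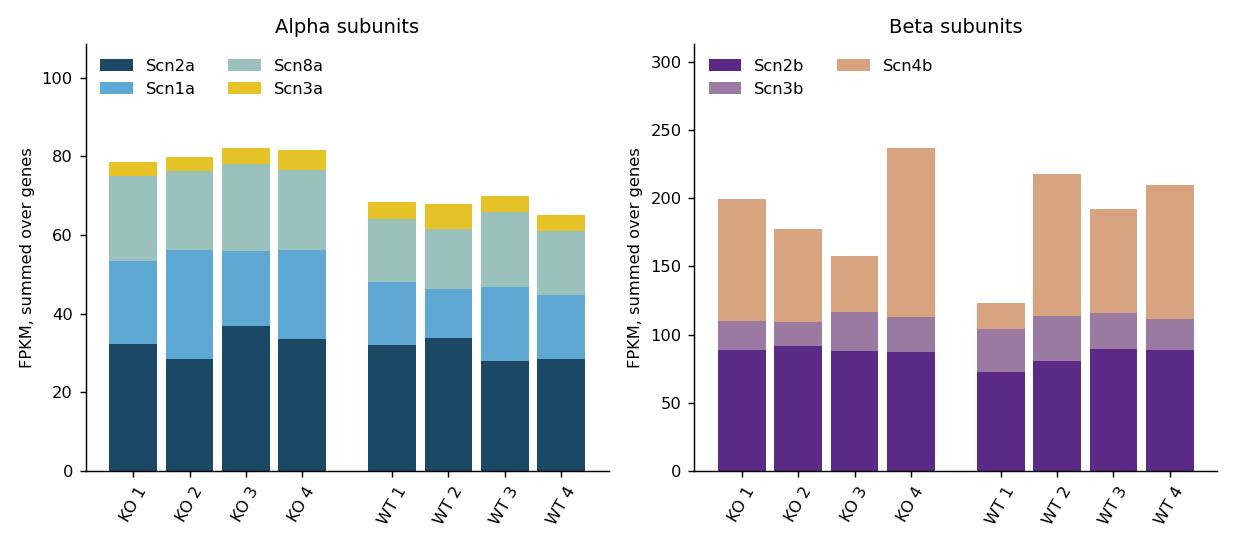
FPKM (y axes, from 0) summed over the alpha subunit genes (left panel) and the beta subunit genes (right panel) in each library, libraries labelled Nsun5-KO (KO) left of WT; each colour is one gene. The alpha sums are 78.6 to 82.2 in the libraries labelled Nsun5-KO and 65.1 to 70 in WT, while the beta sums range from 157 to 237 and from 123 to 218 and overlap, mostly through the Scn4b segment.

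The calls of Scn1a and Scn8a depended on the test and on single libraries. EdgeR called neither with any single library left out: the Scn8a log2 fold change ranged from 0.291 to 0.404 (edgeR adjusted p = 0.114 to 0.61) and that of Scn1a from 0.388 to 0.598 (adjusted p = 0.192 to 0.624). DESeq2 with all libraries called both, and with single libraries left out it called Scn8a in 2 of 8 fits and Scn1a in 2 of 8. It called both without WT replicate 3 (adjusted p = 2.81e-05 for Scn8a and 0.00375 for Scn1a), Scn8a alone without replicate 4 labelled Nsun5-KO (DESeq2 adjusted p = 0.0385) and Scn1a alone without replicate 3 labelled Nsun5-KO (0.033). Without replicate 1 or 2 labelled Nsun5-KO or WT replicate 1, 2 or 4 it called neither, with DESeq2 adjusted p from 0.055 to 0.201 for Scn8a and from 0.0662 to 0.233 for Scn1a. Leaving out WT replicates 1 and 2 together, the pair that stood apart, gave log2 fold changes of 0.249 for Scn8a and 0.365 for Scn1a (edgeR adjusted p = 0.665 and 0.666). Both genes lay above WT in all 28 alternative fits.

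**Figure D3:**
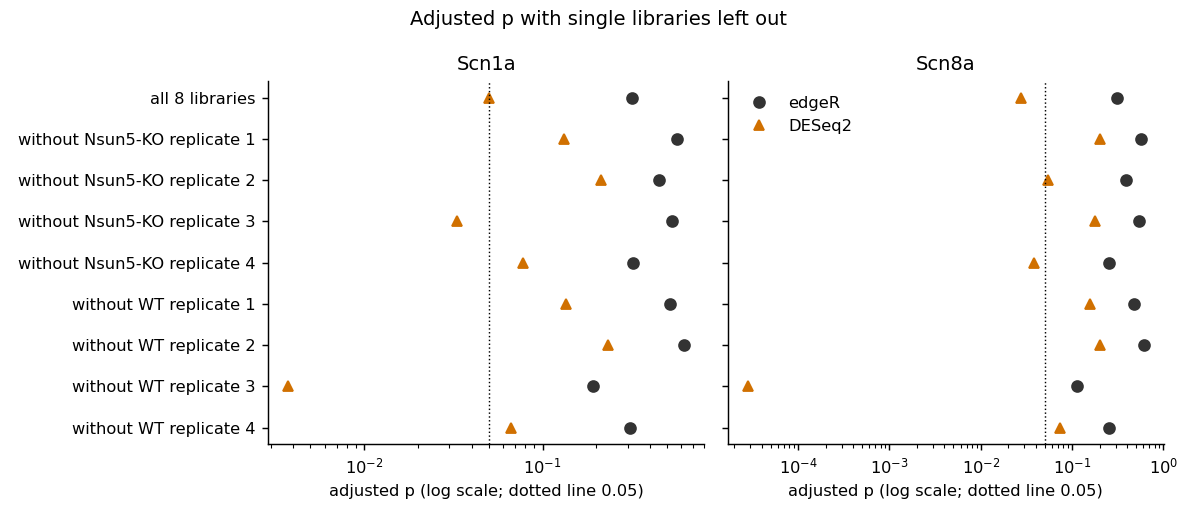
Adjusted p (x axes, log scale) of Scn1a (left panel) and Scn8a (right panel) with all 8 libraries and with each library left out, by edgeR (circles) and DESeq2 (triangles); the dotted line is 0.05. EdgeR stays right of the line in every fit, and DESeq2 crosses it with the library left out, from 0.00375 to 0.233 for Scn1a.

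The beta subunit genes showed no difference that held up against the replicate spread. Their median log2 fold change was 0.10, that of the alpha subunit genes 0.21 and that of all 7 genes 0.10, against -0.005 over all tested genes. Scn2b (chr9:45117782-45130070, plus strand) had 415, 429, 412 and 409.5 CPM in replicates 1 to 4 labelled Nsun5-KO, against 342, 379, 419.7 and 416 CPM in WT replicates 1 to 4. Over all 8 libraries it had the lowest coefficient of variation of the set, 7.09%, with 2.09% in the libraries labelled Nsun5-KO and 9.36% in WT, where Scn2a was at 9.12%. WT replicates 1 and 2 were its lowest libraries, and the other WT values fell within the range of the libraries labelled Nsun5-KO. The fold change was 1.07 with a 95% interval of 0.956 to 1.2 (edgeR adjusted p = 0.687). Without WT replicates 1 and 2 its log2 fold change of 0.10 turned to -0.00715.

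Scn3b (chr9:40269217-40291618, plus strand) had 118, 98.1, 157 and 141 CPM in replicates 1 to 4 labelled Nsun5-KO, against 172, 183, 145 and 123 CPM in WT replicates 1 to 4. The highest values were those of WT replicates 1 and 2 and the lowest those of replicates 1 and 2 labelled Nsun5-KO, with the other 4 libraries in between. The means were 129 ± 25.8 CPM in the libraries labelled Nsun5-KO and 156 ± 27.1 CPM in WT (SD, n = 4 each; exact permutation p = 0.2, two-sided). The fold change was 0.825 with a 95% interval of 0.64 to 1.06 (edgeR adjusted p = 0.599). Of 9 hypothalamic genes tested, 6 were lower at an unadjusted p below 0.05 (5.05% of all tested genes). The summed level of all 14 listed hypothalamic genes was highest in WT replicates 1 and 2, at 178 and 148 CPM. That sum was 16.8 to 28.1 CPM in the libraries labelled Nsun5-KO and 89.4 and 36 CPM in WT replicates 3 and 4. It includes genes that were not tested, among them Pmch (0 to 901 counts) and Hcrt (0 to 601). Single tested genes peaked in different WT libraries, Hdc in replicate 1 (8.08 CPM), Ecel1 in replicate 2 (43.6 CPM) and Avp in replicate 3 (42.4 CPM). The part of hypothalamic genes in the Scn3b level was not tested.

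**Figure D4:**
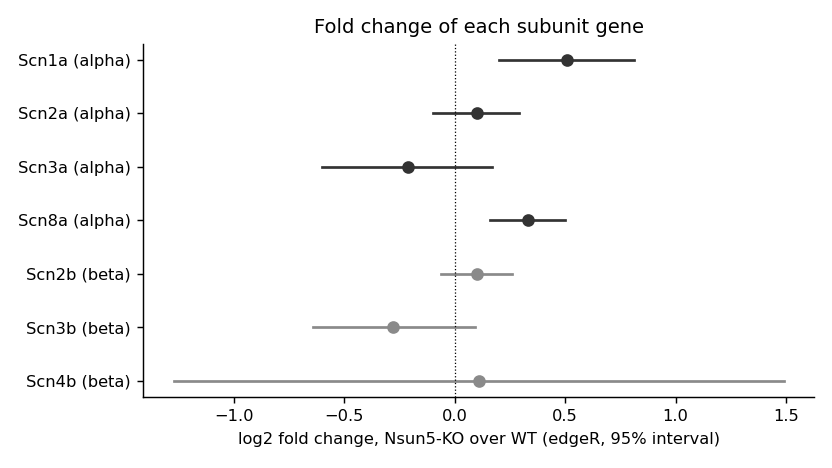
Log2 fold change, libraries labelled Nsun5-KO relative to WT (x axis), for each subunit gene (rows, alpha in black and beta in grey), with the edgeR 95% interval as a line. The intervals of Scn1a (0.20 to 0.81) and Scn8a (0.16 to 0.50) lie above 0, and that of Scn4b runs from -1.27 to 1.49.

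Scn4b, whose product gives the blocking particle of resurgent sodium current, varied most. It had 447, 338, 202 and 625 CPM in replicates 1 to 4 labelled Nsun5-KO, against 96.8, 524, 383 and 495 CPM in WT replicates 1 to 4 (chr9:45138395-45154152, plus strand). Its highest library exceeded its lowest 6.45-fold, and each group had a low library, replicate 3 labelled Nsun5-KO and WT replicate 1. Among the 4595 genes with a mean of at least 50 CPM, 99.5% varied less across the 8 libraries. The means were 403 ± 179 CPM in the libraries labelled Nsun5-KO and 375 ± 195 CPM in WT (SD, n = 4 each). The 95% interval of the fold change, 0.413 to 2.80 around 1.08 (edgeR adjusted p = 0.969), includes a halving and a doubling of the level in WT. Its log2 value of 0.11 turned to -0.189 when replicate 4 labelled Nsun5-KO was left out, and to -0.218 when WT replicate 1 was.

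The spread of Scn4b followed that of genes of striatal medium spiny neurons, the projection neurons of the striatum. The 10 genes of that list, such as Drd1 and Drd2 for dopamine receptors and Ppp1r1b for the phosphatase inhibitor DARPP-32, summed to 1450, 975, 668 and 2230 CPM in replicates 1 to 4 labelled Nsun5-KO, against 486, 2340, 1630 and 1910 CPM in WT replicates 1 to 4. The 3 lowest libraries were the same for Scn4b and for the list, in the same order. By list, 0 of 10 genes passed an unadjusted p below 0.05 in either direction, against 10.4% of all tested genes. The fitted fold change was below WT for 10 of 10, while 48.6% of all tested genes lay above WT. The median log2 fold change was -0.31. Set against the list, Scn4b stood at 309, 346, 303 and 280.0 CPM per 1000 CPM of striatal genes in replicates 1 to 4 labelled Nsun5-KO, against 199, 224, 236 and 259 in WT replicates 1 to 4. On this scale, chosen after the values were seen, every library labelled Nsun5-KO lay above every WT library, and so it was with each of the 10 list genes left out. Genes of fast-spiking interneurons, the cells that depend on Scn1a, summed to 1660 to 2100 CPM in the libraries labelled Nsun5-KO and 1690 to 1930 CPM in WT, and the groups overlapped. Without Gad1 and Gad2, which other inhibitory neurons share, the sums were 1110 to 1420 CPM and 961 to 1240 CPM in WT and still overlapped. Only Gad1 (log2 fold change 0.02) and Gad2 (-0.43) were taken out. Slc32a1 (-0.26), Tac1 (-0.44) and Erbb4 (-0.04), which like Gad2 lay below WT, stayed in these sums. The median log2 fold change of the list was 0.20, with 8 of 12 genes above 0 (48.6% of all tested genes). Pvalb, which encodes the calcium-binding protein parvalbumin, was at 0.44 (edgeR unadjusted p = 0.199). Of the 12 genes 3 were higher at an unadjusted p below 0.05 (5.3% of all tested genes) and 0 lower, all 3 of potassium channels: Kcna2 at a log2 fold change of 0.34 (edgeR adjusted p = 0.313), Kcna1 at 0.31 (0.42) and Kcnab3 at 0.86 (0.477).

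**Figure D5:**
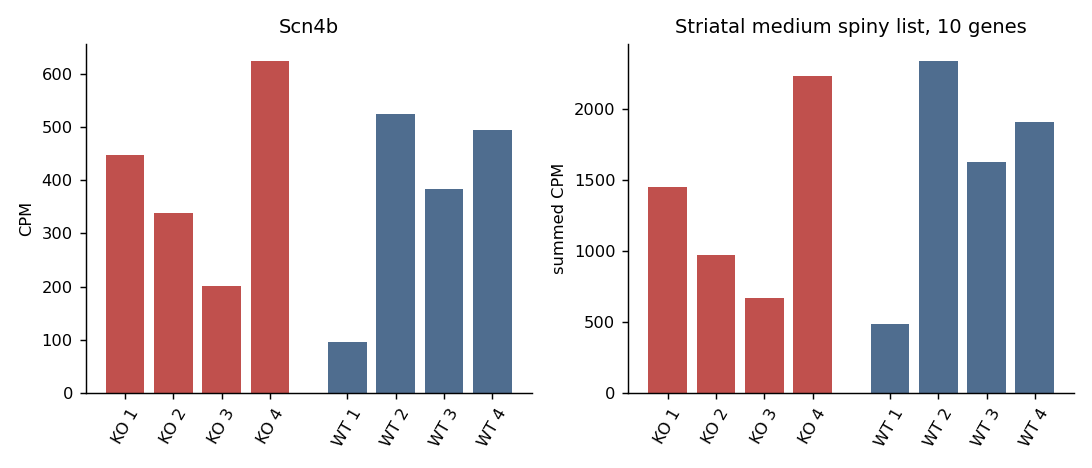
Scn4b in CPM (left panel) and the summed CPM of the 10 striatal medium spiny neuron genes (right panel) in each library, libraries labelled Nsun5-KO (KO) left of WT, bars from 0. The same 3 libraries are lowest in both panels: WT replicate 1, then replicates 3 and 2 labelled Nsun5-KO.

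Genes whose profile over the 8 libraries was closest to that of a subunit gene were sought among 10157 genes with a mean of at least 10 CPM, by the root mean square difference of log2 CPM centred on each gene's mean. For Scn4b these included Ppp1r1b (0.191) and Drd1 (0.215), against a spread of Scn4b itself of 0.828. For Scn1a they were Hrh2 (0.107), Plcxd2 (0.108) and Camk2g (0.108), with a spread of 0.326. Lrrc8b (0.038), Setd7 (0.05) and Btbd8 (0.053) were closest to Scn8a, whose spread was 0.192. Peak1 (0.073), Kctd12 (0.097) and Cdh9 (0.098) were closest to Scn3b, and Grik2 (0.087), Gm7072 (0.089) and Lpl (0.102) to Scn3a. The profiles of Scn2a and Scn2b, with spreads of 0.133 and 0.101, lay nearest to Fam171b (0.028) and Adipor2 (0.028). Within the set, Scn8a and Scn2b were the closest pair (0.151), followed by Scn3a and Scn3b (0.187), while Scn3b and Scn4b were the farthest apart (0.954).

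Partners that anchor or tune the channels differed little between the groups. Of 21 such genes 20 were tested, and 1 was higher at an unadjusted edgeR p below 0.05, near the 5.3% of all genes, with 0 lower. The median log2 fold change was 0.08, the potassium channel gene Kcnq3 was at 0.19 (edgeR adjusted p = 0.558) and S100a10, whose protein binds some sodium channels, at 0.21 (0.622). Ank3, whose ankyrin-G clusters the channels at the axon initial segment and nodes, was at 0.10 (0.711), and Sptbn4, the spectrin beneath it, at 0.05 (0.916). Ank3, Sptbn4 and 4 further partners here were named after their values were seen. The fibroblast growth factor homologues that bind the channel's tail lay between -0.09 for Fgf11 and 0.10 for Fgf14, with Fgf12 at 0.09 and Fgf13 at -0.00. Of 10 other genes of sodium channels and of the NALCN leak channel complex 7 were tested. An unadjusted p below 0.05 was reached by 0 with a higher level (5.3% of all tested genes) and 1 with a lower level (5.05%). Unc80 of that complex was at 0.13 (edgeR adjusted p = 0.593).

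The 4 alpha subunit genes share a structure that sets them apart from the beta subunit genes. They span 111 to 176 kb, with 26 coding exons each, while the beta subunit genes span 12.3 to 22.4 kb with 4 or 5. The coding sequence makes up 37.8% to 54.1% of the gene length used for FPKM in alpha subunit genes and 11.8% to 13.9% in beta subunit genes, so most of the length over which Scn2b, Scn3b and Scn4b were counted is untranslated. By gene span, 9.51% of the 2261 tested protein-coding genes of 100 kb or more had an unadjusted p below 0.05 with a higher level and 5.22% with a lower one, against 3.83% and 6.08% of 3292 genes under 10 kb. The median log2 fold changes of these classes were 0.006 and -0.017. Scn3a, Scn2a and Scn1a lie in one cluster on chromosome 2, with 53.1 kb between Scn3a and Scn2a and 503 kb between Scn2a and Scn1a, and gave fold changes of 0.862, 1.07 and 1.42. Scn2b and Scn4b are 8.32 kb apart on chromosome 9.

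RefSeq start sites (GRCm38.p6) were matched for 5 of the 7 genes, Scn1a, Scn2a, Scn8a, Scn2b and Scn4b. The 250 bases before the start are shown for the 2 genes that lay higher together and, beside them, for Scn2a. CG pairs, which are dense in CpG islands, are in capitals, and each sequence is written in the direction of the gene.
Scn8a: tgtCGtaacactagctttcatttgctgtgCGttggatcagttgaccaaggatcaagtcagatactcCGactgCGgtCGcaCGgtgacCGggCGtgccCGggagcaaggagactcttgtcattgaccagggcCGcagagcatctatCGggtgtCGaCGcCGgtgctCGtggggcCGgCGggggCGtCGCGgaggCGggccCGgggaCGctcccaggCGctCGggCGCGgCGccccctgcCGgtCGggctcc
Scn1a: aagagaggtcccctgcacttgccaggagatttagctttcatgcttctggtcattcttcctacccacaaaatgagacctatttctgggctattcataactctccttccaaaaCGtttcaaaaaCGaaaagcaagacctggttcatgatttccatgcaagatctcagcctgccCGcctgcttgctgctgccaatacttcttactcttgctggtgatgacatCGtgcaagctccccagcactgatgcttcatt
Scn2a: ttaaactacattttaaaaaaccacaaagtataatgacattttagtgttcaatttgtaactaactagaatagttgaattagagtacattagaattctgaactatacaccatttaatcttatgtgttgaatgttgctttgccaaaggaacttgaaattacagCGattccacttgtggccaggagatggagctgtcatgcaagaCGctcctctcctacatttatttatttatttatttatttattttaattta
These windows are chr15:100870395-100870644 on the plus strand for Scn8a, chr2:66440838-66441087 on the minus strand for Scn1a and chr2:65620519-65620768 on the plus strand for Scn2a. The Scn8a window holds 30 CG pairs and 68.0% G and C, and 94.1% of the 32851 mouse windows have fewer pairs. A second RefSeq start of Scn8a, at 100936271 on chromosome 15, has 9 pairs and 53.2% G and C before it. The Scn1a window holds 4 pairs and 46.8% G and C, as against a median of 6 over all windows, and the Scn2a window 2. Of the Scn1a window, 211 bases lie in annotated exons, mostly those of Gm13629 on the other strand. Which start is used in these samples cannot be read from counts per gene. None of the searched motifs was found in these 3 windows or the 50 bases after them, on either strand. The search covered TGACGTCA, the cyclic AMP response element, which 1.79% of all 32851 windows of the same length hold. It covered the E-box CACGTG, a site of basic helix-loop-helix factors, which 7.15% of all windows hold. The GC box GGGCGG, to which factors of the Sp family bind, occurs in 35.7% of all windows. The TATA box was searched as TATAAA, a positioning element of the core promoter, and is present in 13.6% of them. The last was TTCAGCACC, the left part of the RE1 element bound by the neuronal silencer REST, which 0.371% of the windows hold. A second RefSeq start of Scn2a, at 65668686 on chromosome 2, had TATAAA before it.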

How the data were processed

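RNA of brain tissue was sequenced in 4 libraries labelled Nsun5-KO and 4 WT libraries. Per the labels, TRIzol served for extraction and an unstranded NEBNext Ultra kit for the libraries. Reads were aligned with HISAT2 2.0.5 to mm10, per the submitters' processing notes, and the counter is not given in the sources used here. Raw reads per gene make up the deposited counts. The deposited FPKM values equal those counts over gene length and a constant per library, 0.9813 to 1.022 times its total. The authors' group means were not used. Gene coordinates in the files equal those of GENCODE M21.

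Counts were fitted with edgeR 4.0.16 in R 4.3.3 on the whole table: filterByExpr by group (16062 genes), TMM scaling, and the robust quasi-likelihood test of genotype over 8 libraries without covariates, with Benjamini-Hochberg adjustment. CPM uses TMM-scaled library sizes. Exact permutation tests ran over 70 labelings. Alternatives were DESeq2 1.42.0, other scalings and filters, limma 3.58.1 (voom, or log2 FPKM with a pseudocount of 1 or 0.1), the replicate number as a block, and libraries left out. The fit was tested on simulated data. Replicates are separate samples by the labels, and no pair within a group agreed within sampling noise (chi-square per degree of freedom 7.77 to 22.3).

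The genes of the set, the 16 gene lists and the left-out pairs of libraries were chosen with earlier results of these data known. Besides the set and Nsun5, genes were named by 2 rules, the 3 smallest p-values within a list and the 3 profiles nearest to a subunit gene, and some that this rule takes are not reported here. Others were named after their values were seen.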

Additional observations from a re-analysis of the deposited data

Results flagged for a closer look

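In WT, Scn3a had 1 library far from the other 3: WT replicate 2 at 80.3 CPM, against 55.3, 52.0 and 51.7 CPM in WT replicates 1, 3 and 4. Its gap to the next library was 0.875 of the range of the group, over Dixon's 95% critical value for 4 samples. The test was made for 14 groups, 7 genes in each genotype, and chance marks about 1 group in 20. Scn3b was also highest in WT replicate 2 (183 CPM), and the Scn3a log2 fold change was -0.0453 without it.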

How the results depend on the processing

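Over 20 alternative fits (other tools, scalings, filters, the block and left-out libraries), 134 of 140 fold changes of single subunit genes kept their direction and their side of the threshold. DESeq2 called 2 of the 7 genes (Scn1a 0.506, Scn8a 0.332) and 94 genes in all, and edgeR without the low-count filter called 68; edgeR called 0. Without WT replicates 1 and 2 the median of the 7 genes was -0.00715 in place of 0.0981, Scn2b was at -0.00715 and Scn4b at -0.128. With single libraries left out, edgeR called 0 to 2 genes, and Scn4b ranged from -0.218 to 0.326. DESeq2 with single libraries left out was added after seeing the data. It called 44, 64, 37 and 169 genes without replicates 1 to 4 labelled Nsun5-KO and 43, 20, 255 and 156 without WT replicates 1 to 4, of them 0 to 2 of the 7. In these fits Scn1a ranged from 0.394 to 0.599 (0.58 without replicate 3 labelled Nsun5-KO) and Scn8a from 0.296 to 0.405 (0.352 without replicate 4 labelled Nsun5-KO), while Scn4b was at -0.184 in the fit without replicate 4 labelled Nsun5-KO, and at -0.213 in that without WT replicate 1. The causes were not tested. Scalings moved the median of all genes by less than 0.1. Libraries with the same replicate number did not deviate together (correlations -0.115, -0.213, -0.041 and 0.063, against -0.167 to 0.182 between different numbers). These values gave no sign of pairing. They cannot settle whether the numbers mark pairs, since weak correlations can also occur between paired samples. With the replicate block edgeR called 0 genes, with Scn1a at 0.505 and Scn8a at 0.335. With 4 libraries a group, differences as small as those of Scn2a and Scn2b could not be resolved, and for Scn4b the spread between libraries was the limit.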

Other observations

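The remaining cell type lists give the setting of these values, all by edgeR at an unadjusted p below 0.05. Of all tested genes 5.3% were higher and 5.05% lower at that threshold. Of 10 thalamic relay genes 0 were higher and 1 lower (Synpo2, log2 fold change -0.59), and of 9 tested genes of immature neurons 1 was higher (Tbr1, 0.48, also in the cortical list) and 2 lower, with Cd24a at -0.72 and Dlx2 at -0.45. That list matters for Scn3a as a channel gene of the young brain, and its summed level was 237 to 269 CPM in the libraries labelled Nsun5-KO and 205 to 248 CPM in WT, which overlap. Without Tbr1 the sums were 115 to 130 CPM in the libraries labelled Nsun5-KO and 122 to 156 CPM in WT. These overlap as well, but with the lower mean in the libraries labelled Nsun5-KO. Of the 9 genes 7 had a fitted level below WT, while 48.6% of all tested genes lay above WT. Oligodendrocyte precursor genes gave 0 higher and 2 lower of 9, astrocyte genes 0 and 1 of 9, microglial genes 0 and 1 of 8, endothelial genes 0 and 0 of 6, and cerebellar genes 0 and 2 of 4 tested. Those 2 were Zic1 (log2 fold change -1.18) and Calb1 (-0.30), which are also expressed outside the cerebellum. Gabra6 and Pcp2 had too few counts to be tested. Choroid plexus genes gave 0 and 0 of 7 and ranged most, from 55.5 to 1190 summed CPM in the libraries labelled Nsun5-KO and from 313 to 1170 CPM in WT.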
